A study of Mus musculus with 4 samples.

Results

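The transcripts of 10 genes that encode ligands of T cell checkpoint and costimulatory receptors were examined in J558 allografts. The genes were chosen by name: Cd274, Pdcd1lg2, Lgals9, Cd80, Cd86, Cd276, Vtcn1, Pvr, Tnfrsf14 and Icosl. All 10 were present among the 24421 gene symbols of the count tables, and 9 of them passed the filter on low counts, together with 13669 genes in all. Vtcn1 did not pass.

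J558 is a mouse plasmacytoma line, and the allografts were grown under the skin of the flank of female BALB/c mice, listed as 4 weeks old, whose own immune cells could enter the tumour. Mice were dosed by mouth once daily for 6 days with vehicle (0.5% methylcellulose) or with TAK-931 at 60 mg/kg, an inhibitor of the replication kinase CDC7. Bulk RNA was sequenced from 2 allografts given vehicle (called Vehicle-1 and Vehicle-2) and 2 given TAK-931 (called TAK-931-1 and TAK-931-2), numbered as separate samples; p-values measure only the spread between these. Pairs of values are given as replicate 1, then replicate 2. A bulk library holds RNA of J558 cells and of host cells together, so a larger number of ligand-bearing cells and more ligand RNA in each cell cannot be told apart.

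A T cell needs a signal through its antigen receptor and a second one from costimulatory receptors such as CD28 and ICOS. Inhibitory receptors, among them PD-1, CTLA-4, TIM-3, TIGIT and BTLA, dampen the response, and several of them compete with a costimulatory receptor for the same ligand. Most of these ligands belong to the B7 family of immunoglobulin-like membrane proteins and are made by dendritic cells, macrophages, B cells and some tumour cells. Interferon-gamma from T and NK cells is a known inducer of PD-L1.

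Library depth was between 16487902 and 19589339 counts. Levels are given as CPM, counts scaled to library size after TMM normalization. A gene with no count in a library could still have had 3, equal to 0.158 to 0.180 CPM across libraries. Low counts were mostly even numbers, so both mates of a pair appear to be counted. This bound is then too low, and the Poisson intervals given below are too narrow. The 2 TAK-931-treated libraries differed from each other in their content of host cell genes. The summed level of 12 monocyte and macrophage markers was 639 and 526 CPM with vehicle against 9375 and 1674 CPM with TAK-931, and none of the markers was at 0 in any library. Summed dendritic cell markers (9 genes) were at 30.7 and 25.7 CPM with vehicle and at 320.2 and 69.8 CPM with TAK-931. Of the 9, 8 were higher without overlap, as were 30.0% of all genes, with Flt3 the exception. The level of the filter on low counts was not reached in both vehicle libraries by 2 of the 9, so their differences were in part fixed by it. Itgax, which macrophages also express, made up 238 and 42.9 CPM of the sums with TAK-931, and Xcr1, a marker of cross-presenting dendritic cells, was at 1.30 and 0.599 CPM with vehicle and at 14.6 and 2.57 CPM with TAK-931. Summed fibroblast markers (5 genes) were at 1357 and 1510 against 11236 and 3834 CPM, and endothelial markers (5 genes) were at 212 and 224 against 760 and 227 CPM. Ptprc, which encodes the leukocyte antigen CD45, was at 36.6 and 20.8 CPM with vehicle and at 633 and 128 CPM with TAK-931. The summed level of 8 plasma cell markers, which include the J558 antigen gene Trap1a, was 9717 and 10286 CPM with vehicle, and TAK-931 gave 4801 and 13646 CPM. Jchain made up more than any other gene of this sum. Of the 8 markers, 3 (Sdc1, Xbp1 and Mzb1) were lower with TAK-931 without overlap, as were 32.7% of all genes. Mzb1 was only slightly lower in TAK-931-2, at 777 CPM against 799 and 812 CPM with vehicle. The other 5 overlapped between the groups, lowest in TAK-931-1 and highest in TAK-931-2. The labels call the line a B lymphocyte. Of 7 B cell markers, at 201 and 244 CPM in sum with vehicle and 90.8 and 227 CPM with TAK-931, Pax5 had no count in any library, whereas Cd79b and Ms4a1 were at 167 and 30.5 CPM in Vehicle-1. The part of these differences in cell content in the results on ligands was not tested.

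Across the comparison of TAK-931 with vehicle, 0 of the 9 ligands tested passed an adjusted p of 0.05 in edgeR's quasi-likelihood test, where 0% of all genes did. At an unadjusted p under 0.05, 6 of the 9 were higher in TAK-931-treated allografts and 0 were lower, against 11.6% and 6.55% of all genes tested. The groups did not overlap in 7 ligands, all 7 of them higher with TAK-931, as they were in 30.0% of all genes; no ligand was lower in both TAK-931-treated libraries, as 32.7% of all genes were, and 62.7% of all genes did not overlap in one direction or the other. The median log2 fold change of the 9 ligands was 2.01, beside 0.02 over all genes tested, and it was 0.91 without TAK-931-1. One of the 9, Pdcd1lg2, entered the test only through the TAK-931-treated libraries; over the other 8, 5 were higher at an unadjusted p under 0.05 and the median was 1.89. TAK-931-1 exceeded TAK-931-2 in 8 of the 9 ligands and in 50.4% of all genes. DESeq2 called 6 of the 9 at its adjusted p of 0.05 (Cd274, Pdcd1lg2, Lgals9, Cd86, Tnfrsf14 and Icosl), all 6 higher, where it called 11.0% of genes and 9.78% as higher. With the replicate number as a block, edgeR called 0 of the 9 and 1.05% of genes.

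**Figure D1:**
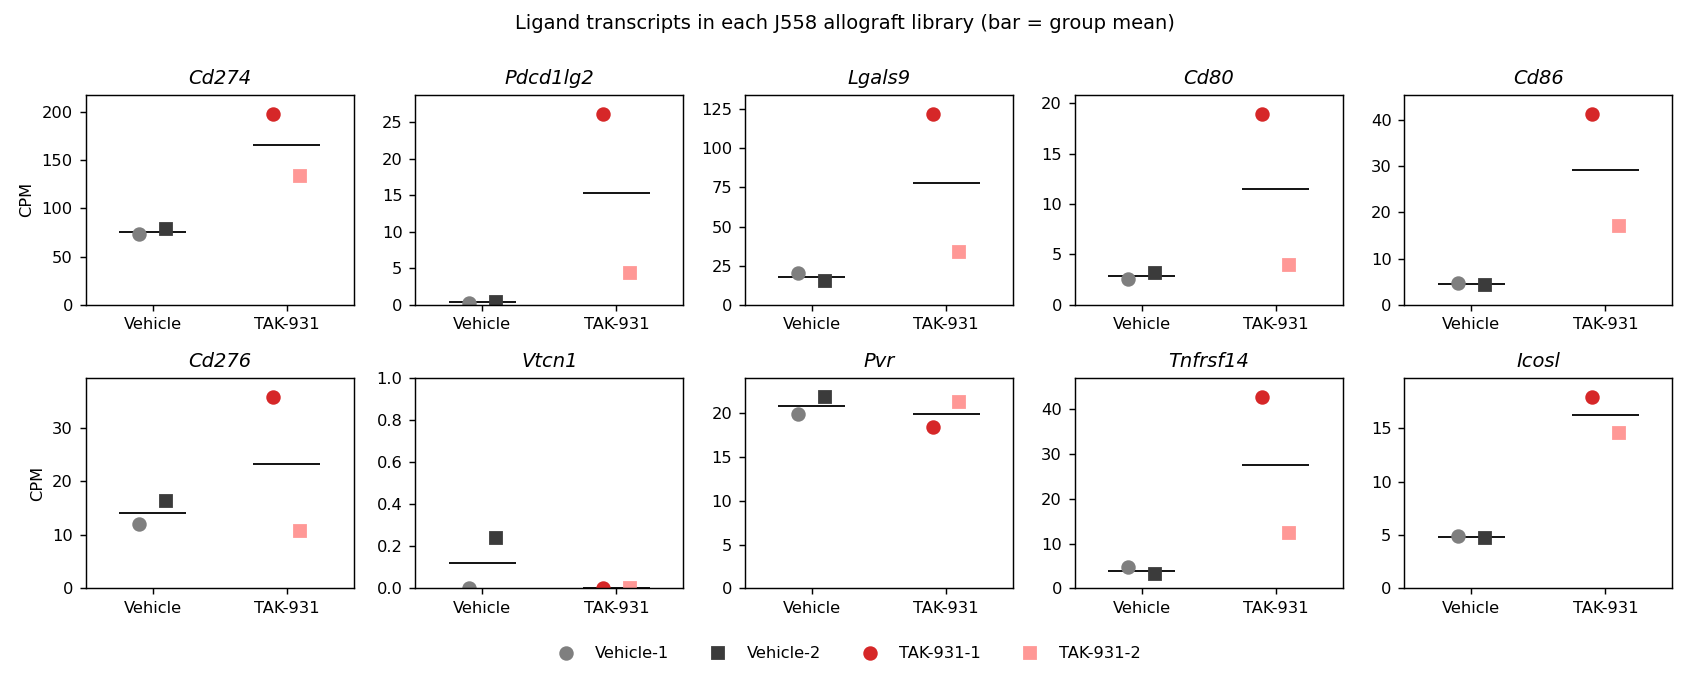
CPM of each of the 10 ligand genes (vertical axes, each from 0) in the 2 vehicle-treated and 2 TAK-931-treated libraries, with a bar at the group mean. TAK-931-1 is the highest point for 8 genes, Pvr is level across the groups, and Vtcn1 was counted in Vehicle-2 only.

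The 5′ regions of 3 ligands are shown because Lgals9 and Tnfrsf14 held a match to the interferon regulatory factor motif, and the other 6 ligands searched did not, whereas Cd274 is the gene of the therapeutic target PD-L1. Each line gives the 250 bases before the annotated start, 5′ to 3′ on the gene's strand, from RefSeq on GRCm38.p6, the assembly of mm10. Capitals mark a match, on either strand, to the interferon regulatory factor motif, which is GAAA, any 2 bases and GAAA again.

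Lgals9, chr11:78984925-78985174, minus strand: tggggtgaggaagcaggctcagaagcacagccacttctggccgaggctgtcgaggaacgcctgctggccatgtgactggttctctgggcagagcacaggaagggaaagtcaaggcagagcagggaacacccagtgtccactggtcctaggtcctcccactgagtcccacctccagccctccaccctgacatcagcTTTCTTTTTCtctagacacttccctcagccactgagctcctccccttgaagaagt

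Tnfrsf14, chr4:154928078-154928327, minus strand: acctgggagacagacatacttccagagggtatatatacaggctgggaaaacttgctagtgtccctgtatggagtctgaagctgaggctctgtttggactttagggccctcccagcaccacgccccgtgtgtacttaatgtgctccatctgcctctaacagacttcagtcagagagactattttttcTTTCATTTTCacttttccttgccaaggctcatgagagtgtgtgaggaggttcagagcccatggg

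Cd274, chr19:29367188-29367437, plus strand: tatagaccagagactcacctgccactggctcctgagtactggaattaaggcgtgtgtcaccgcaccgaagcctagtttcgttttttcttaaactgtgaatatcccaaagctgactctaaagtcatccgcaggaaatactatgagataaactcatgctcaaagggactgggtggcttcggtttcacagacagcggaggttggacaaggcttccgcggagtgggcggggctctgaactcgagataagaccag

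Sequences were found for 8 of the 10 ligands; Cd86 and Pvr were not matched. The search covered 300 bases, from 250 before to 50 after the RefSeq start, on both strands. For Cd276, on the minus strand, this start lay upstream of the gene model used for counting. Its window was chr9:58554984-58555283, and that model spans 58524300 to 58540940. The interferon regulatory factor motif matched once in Tnfrsf14, at bases 187 to 196, and at 2 places in Lgals9, bases 196 to 205 and, past the start, 266 to 275. It was found in 3.44% of 32851 such regions of all genes. The broader outline of an NF-kappaB site, GGG, any 5 bases and CC, was found in Cd276, Cd80, Icosl, Lgals9, Pdcd1lg2 and Tnfrsf14, and in 50.8% of all regions. The AP-1 motif TGANTCA was found in Cd80 and Vtcn1, and in 7.81% of all regions. A match of letters is a description of these windows and says nothing of a factor's binding in the allografts.

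Among the ligands of PD-1, Cd274, which encodes PD-L1 (chromosome 19, 29367438 to 29388094, mm10, 7 exons), had 73.0 and 78.2 CPM with vehicle and 198 and 134 CPM with TAK-931. Both TAK-931-treated libraries lay above both vehicle-treated libraries, at 2.63-fold and 1.77-fold the vehicle mean. The log2 fold change was 1.14 (SE 0.28, 95% interval 0.38 to 1.90), with an unadjusted p of 0.0134 and an adjusted p by edgeR of 0.275. It was 0.82 in the fit without TAK-931-1 and 1.37 without TAK-931-2. Both of these fits took the spread within the TAK-931 group from the vehicle pair, which was tight, and there the adjusted p by edgeR was 0.000861 and 0.000329. In the fits without Vehicle-1 or Vehicle-2, where the spread came from the TAK-931 pair, it was 0.999 and 0.878, and 0 of the 9 ligands were called.

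Pdcd1lg2, which encodes PD-L2, the second ligand of PD-1 (chromosome 19, 29410919 to 29472927, 6 exons), had 5 and 6 counts with vehicle and 497 and 75 with TAK-931, or 0.296 and 0.360 against 26.2 and 4.38 CPM. It was nearly silent in the vehicle-treated allografts and well counted in both treated ones, which differed from each other. The exact 95% Poisson interval of the vehicle counts was 1.62 to 11.7 for 5 counts and 2.20 to 13.1 for 6, and covers counting error only. Its log2 fold change of 5.51 (SE 1.16, unadjusted p 0.00748 by edgeR) was the largest of the ligands, and it was 3.71 without TAK-931-1. Leaving out 1 library gave adjusted p-values by edgeR of 0.00711 and 0.000241 without TAK-931-1 and TAK-931-2, and of 0.304 and 0.546 without Vehicle-1 and Vehicle-2. Pdcd1lg2 passed the filter only through the TAK-931-treated libraries, so a difference was in part fixed by the filter.

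The PD-1 ligand genes lie side by side, with 22.8 kb and no other gene of the tables between them. Per kilobase of exon, Cd274 was 231-fold and 204-fold the level of Pdcd1lg2 with vehicle, and 7.12-fold and 28.7-fold with TAK-931. The groups did not overlap in this ratio, which is given as a description because Pdcd1lg2 had 5 and 6 counts with vehicle and was tested only through the TAK-931-treated libraries. Of 7 other genes listed around the pair, 5 were tested. Ric1, the next gene downstream, had the largest log2 fold change among these 5, 1.25 (SE 0.41, unadjusted p 0.0341 by edgeR), with 34.2 and 32.9 CPM with vehicle and 107 and 52.1 CPM with TAK-931. Without TAK-931-1 it was 0.63. Plgrkt, the next gene upstream, overlapped between the groups, with 38.8 and 43.8 CPM with vehicle and 62.1 and 38.7 CPM with TAK-931. Jak2, farther upstream and a kinase of the interferon-gamma receptor, had 92.1 and 74.7 CPM with vehicle and 103 and 94.1 CPM with TAK-931, and Ermp1 had the lowest log2 fold change of the 5, −0.07, which was 0.01 under a filter of 10 counts per library and 0.05 without Vehicle-1.

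Lgals9, which encodes galectin-9, a secreted lectin described as a ligand of TIM-3 (chromosome 11, 78962979 to 78984924, 11 exons), had 20.6 and 15.0 CPM with vehicle and 122 and 33.6 CPM with TAK-931. The groups did not overlap, and TAK-931-1 stood far above the rest. The log2 fold change was 2.13 (SE 0.69), with an unadjusted p of 0.0335 and an adjusted p by edgeR of 0.275, and it was 0.91 without TAK-931-1 and 2.76 without TAK-931-2. Those fits gave adjusted p-values by edgeR of 0.0144 and 0.000372, against 0.430 and 0.651 without Vehicle-1 and Vehicle-2.

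Cd80 and Cd86 encode B7-1 and B7-2, which bind both CD28 and CTLA-4 and lie on chromosome 16 (38458933 to 38486932 and 36603869 to 36666077). Cd86 had 4.63 and 4.20 CPM with vehicle and 41.4 and 17.0 CPM with TAK-931. Both TAK-931-treated libraries were clear of the vehicle pair, at 9.39-fold and 3.85-fold its mean. Its log2 fold change of 2.72 (SE 0.56) had the lowest unadjusted p of the ligands, 0.00676 by edgeR, and it was 1.94 without TAK-931-1 and 3.21 without TAK-931-2, with adjusted p-values by edgeR of 0.00206 and 0.000312, against 0.433 and 0.566 without Vehicle-1 and Vehicle-2.

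Cd80 had 2.55 and 3.12 CPM with vehicle and 19.0 and 3.97 CPM with TAK-931. The groups did not overlap, but the count of 68 in TAK-931-2 (exact Poisson interval 52.8 to 86.2) was near the 52 of Vehicle-2 (38.8 to 68.2). Its log2 fold change of 2.01 (SE 0.88, unadjusted p 0.0798 by edgeR) became 0.48 without TAK-931-1, with an adjusted p by edgeR of 0.501, so TAK-931-1 decided its size. Without TAK-931-2 it was 2.72, with an adjusted p by edgeR of 0.00146, against 1.00 and 0.880 without Vehicle-1 and Vehicle-2. Per kilobase of exon, Cd86 was 1.21-fold and 0.901-fold the level of Cd80 with vehicle, and 1.46-fold and 2.87-fold with TAK-931, a ratio that did not overlap between the groups (exact permutation p = 0.333, the smallest that 2 against 2 libraries allow).

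Icosl, which encodes the ligand of ICOS (chromosome 10, 78069368 to 78079525), had 4.86 and 4.68 CPM with vehicle and 17.9 and 14.5 CPM with TAK-931. It differed least between the TAK-931-treated libraries of the 7 ligands whose groups did not overlap, at 3.76-fold and 3.05-fold the vehicle mean. TAK-931 and vehicle differed by a log2 fold change of 1.76 (SE 0.39, unadjusted p 0.00832 by edgeR), and it was 1.60 without TAK-931-1 and 1.89 without TAK-931-2, where the adjusted p by edgeR was 0.00515 and 0.00320, against 0.964 and 0.888 without Vehicle-1 and Vehicle-2.

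Tnfrsf14 encodes HVEM, a member of the TNF receptor family that acts as a ligand of BTLA and CD160 (chromosome 4, 154922210 to 154928077). It had 4.80 and 3.12 CPM with vehicle and 42.7 and 12.3 CPM with TAK-931. Its order of libraries was that of Lgals9, with both treated libraries above the vehicle pair and TAK-931-1 highest. Its log2 fold change was 2.79 (SE 0.75, unadjusted p 0.0176 by edgeR), and it was 1.63 without TAK-931-1 and 3.40 without TAK-931-2, with adjusted p-values by edgeR of 0.0118 and 0.000599, against 0.414 and 0.628 without Vehicle-1 and Vehicle-2.

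Pvr, Cd276 and Vtcn1 showed no shared direction in the TAK-931-treated libraries. Pvr encodes CD155, the ligand for which TIGIT, CD96 and CD226 compete (chromosome 7, 19903578 to 19921143), and had 19.9 and 21.8 CPM with vehicle and 18.4 and 21.3 CPM with TAK-931. The TAK-931-treated libraries lay on either side of Vehicle-1. Its log2 fold change was −0.07 (SE 0.28), with a 95% interval from −0.82 to 0.68, and it was 0.03 without TAK-931-1.

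Cd276, which encodes B7-H3, whose receptor on T cells is not settled (chromosome 9, 58524300 to 58540940), had 12.0 and 16.4 CPM with vehicle and 35.7 and 10.7 CPM with TAK-931. The TAK-931-treated libraries lay on opposite sides of the vehicle pair. The log2 fold change of 0.71 (SE 0.66, 95% interval −1.07 to 2.49) became −0.41 without TAK-931-1, with an adjusted p by edgeR of 0.297, and 1.31 without TAK-931-2, with 0.00651, against 1.00 and 0.991 without Vehicle-1 and Vehicle-2. Vtcn1, which encodes B7-H4 (chromosome 3, 100825459 to 100896922), had 4 counts in Vehicle-2 and none elsewhere, so it could not be detected with TAK-931 at this depth.

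**Figure D2:**
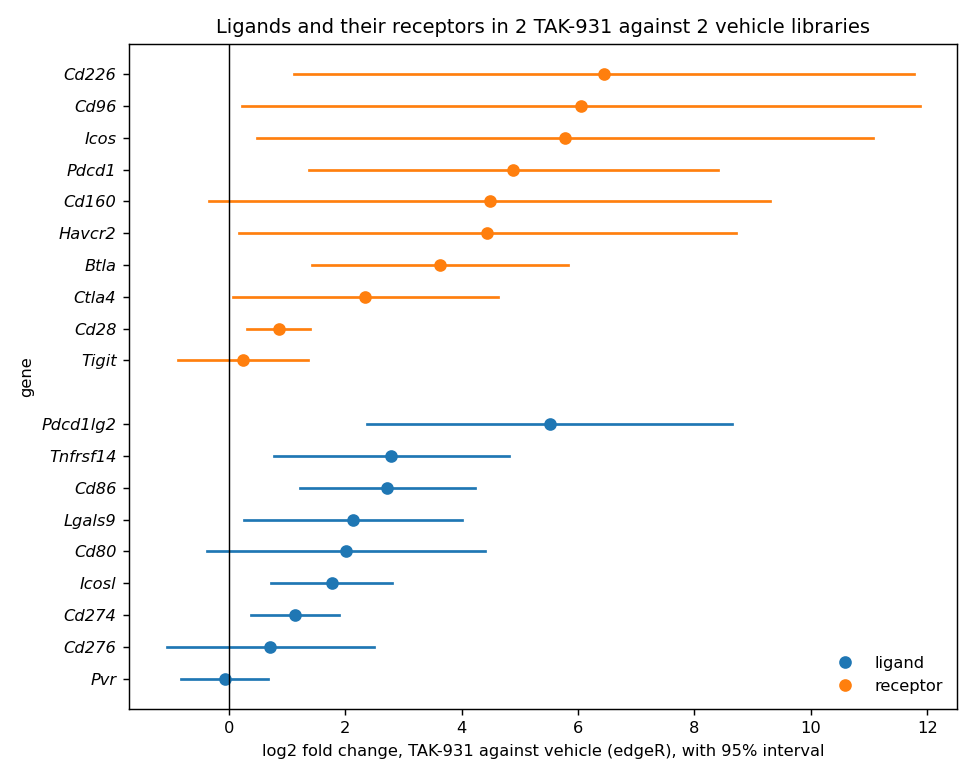
Log2 fold change of TAK-931 against vehicle (horizontal axis) with its 95% interval for 9 ligands and their 10 receptors, from edgeR's fit to 2 against 2 libraries. The intervals of Cd80, Cd276 and Pvr among the ligands, and of Cd160 and Tigit among the receptors, include 0; these are intervals of single genes, and 0 genes passed the adjusted threshold.

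The levels of the ligands were compared per kilobase of exon, as CPM divided by the summed exon length. In vehicle-treated allografts, Cd274 was the most abundant, with 20.8 ± 1.00 CPM per kilobase, followed by Lgals9 with 11.2 ± 2.49, Pvr with 7.23 ± 0.464 and Cd276 with 4.45 ± 0.974 (SD, n = 2). Tnfrsf14 followed with 4.43 ± 1.34, then Cd86 with 1.74 ± 0.120, Icosl with 1.74 ± 0.0481 and Cd80 with 1.67 ± 0.236 (SD, n = 2). Pdcd1lg2 was at 0.0961 ± 0.0131 and Vtcn1 at 0.0457 ± 0.0647 CPM per kilobase (SD, n = 2). Cd276 and Tnfrsf14 overlapped in range between the vehicle-treated libraries, as did Cd86 and Icosl, Icosl and Cd80, and Pdcd1lg2 and Vtcn1. Cd274, Lgals9, Pvr, Tnfrsf14 and Cd80 were each apart from the next gene down the order.

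In TAK-931-treated allografts, Lgals9 had a mean of 49.1 ± 39.5 CPM per kilobase and Cd274 of 45.7 ± 12.5 (SD, n = 2), in overlapping ranges. Tnfrsf14 came next with 30.8 ± 24.0 and then Cd86 with 11.5 ± 6.80, while Pvr had 6.88 ± 0.700 (SD, n = 2). Of all neighbours in this order, only Pdcd1lg2 and Vtcn1 did not overlap in range. Cd274 made up 37.0% and 40.9% of the summed ligand level with vehicle, and 22.9% and 37.5% with TAK-931. The share of Lgals9 was 23.9% and 18.0% with vehicle and 32.3% and 21.6% with TAK-931. Tnfrsf14 took 9.91% and 6.65% with vehicle and 20.0% and 14.1% with TAK-931. Pvr, with a nearly constant level, took 12.7% and 14.4% with vehicle, and 2.68% and 7.52% with TAK-931. TAK-931-2 was thus close to the vehicle pair in its shares of Cd274 and Lgals9 and lay apart from it in those of Tnfrsf14 and Pvr.

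**Figure D3:**
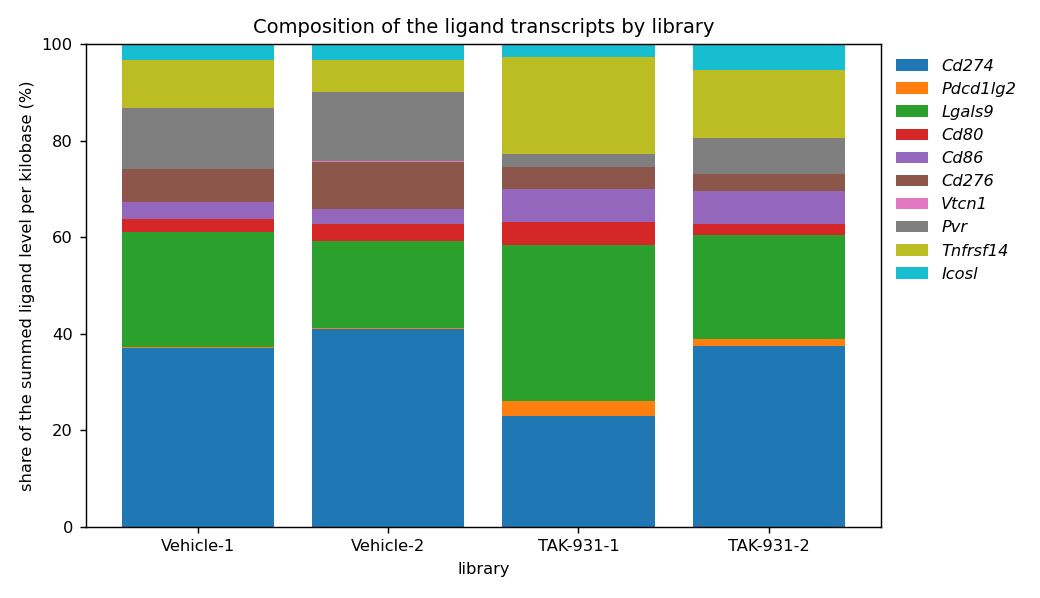
Share of each ligand in the summed level of the 10 ligands per kilobase of exon (percent, vertical axis) in each library. Cd274 is the largest share in Vehicle-1, Vehicle-2 and TAK-931-2, and Lgals9, at 32.3%, is the largest in TAK-931-1.

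The ligands were set against Ptprc within each library, because Ptprc itself reached 22.0-fold and 4.44-fold its vehicle mean with TAK-931. Relative to Ptprc, 7 of the 9 ligands were lower with TAK-931 without overlap, as were 93.6% of the genes with a count in every library. Cd274 had log2 ratios to Ptprc of 0.99 and 1.91 with vehicle and of −1.67 and 0.07 with TAK-931, so its CPM exceeded that of Ptprc in every library but TAK-931-1. Cd86 was one of the exceptions, with log2 ratios of −2.99 and −2.31 with vehicle and −3.93 and −2.91 with TAK-931, which overlapped (exact permutation p = 0.667).

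Pdcd1lg2 was the other exception and was higher relative to Ptprc in both TAK-931-treated libraries, with log2 ratios of −6.95 and −5.85 with vehicle and −4.60 and −4.87 with TAK-931. The same was found for 0.509% of genes. Its vehicle values rest on 5 and 6 counts, and it was tested only through the TAK-931-treated libraries, so no weight rests on this direction. Pvr had the largest difference in the other direction, a mean of −3.44 on the log2 scale. For Cd274, Pdcd1lg2 and Pvr, the exact permutation test gave p = 0.333, the smallest possible. With the summed monocyte and macrophage markers in place of Ptprc, 5 ligands were lower without overlap, as were 89.3% of genes, and Cd86, Tnfrsf14 and Icosl overlapped between the groups.

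**Figure D4:**
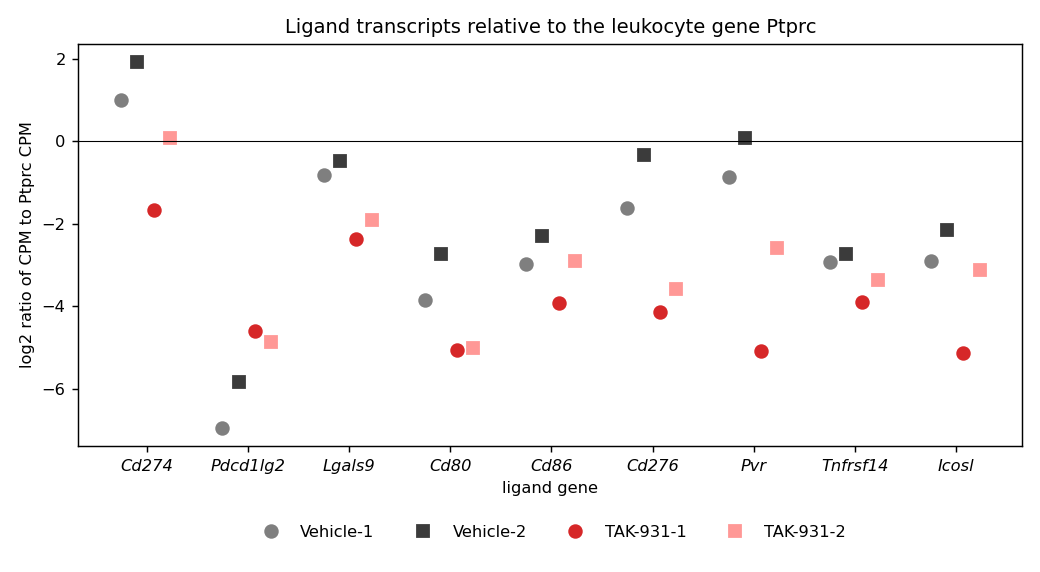
Log2 ratio of the CPM of 9 ligands to the CPM of Ptprc (vertical axis) in each library. The TAK-931-treated libraries lie below both vehicle-treated libraries for 7 ligands, overlap them for Cd86 and lie above them for Pdcd1lg2.

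The receptors that bind these ligands were examined in the same fit. Of 10 receptors, 0 passed an adjusted p of 0.05 by edgeR, 8 were higher at an unadjusted p under 0.05 and 0 were lower (all genes, 11.6% and 6.55%), and their median log2 fold change was 4.46. Cd226, Cd96, Cd160, Icos and Btla, 5 of the 10, did not reach the filter's level in both vehicle libraries and passed through the TAK-931-treated ones, so their differences, and with them the count and the median, were in part fixed by the filter. The median of the 10 was 2.01 without TAK-931-1. Over the other 5 receptors, 4 had an unadjusted p under 0.05 and the median was 2.35. The summed level of 8 T cell markers was 27.3 and 17.3 CPM with vehicle and 1128 and 71.8 CPM with TAK-931. All 8 were higher without overlap, as were 30.0% of all genes. Of the 8, 4 did not reach the filter's level in both vehicle libraries, so their differences were in part fixed by the filter. The part of T cell content in the receptor levels was not tested. Pdcd1, the receptor of the products of Cd274 and Pdcd1lg2, had 2.96 and 2.88 CPM with vehicle and 159 and 14.3 CPM with TAK-931. For Pdcd1 the log2 fold change was 4.89 (SE 1.30), against 2.29 when TAK-931-1 was left out. Btla, a receptor of HVEM, had 0.712 and 0.360 CPM with vehicle and 9.48 and 3.97 CPM with TAK-931. Both receptors were low in the vehicle pair and separated the groups.

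Among the receptors of the Pvr product, Cd226, an activating receptor, had 8 and 0 counts with vehicle, and 749 and 55 with TAK-931, and Cd96 had 6 and 0 counts with vehicle and 445 and 18 counts with TAK-931. Cd226 had a log2 fold change of 6.45, the largest of the receptors, which was 3.71 without TAK-931-1, and that of Cd96 was 6.05, or 2.51 without TAK-931-1. Vehicle-2 had no count of either, so no fold is given without Vehicle-1. Tigit, the inhibitory receptor, was abundant in every library, with 77.6 and 59.5 CPM with vehicle and 53.8 and 109 CPM with TAK-931. Its groups overlapped, and its log2 fold change of 0.25 (SE 0.41) was the smallest of the receptors and became −0.37 without TAK-931-2.

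The receptors of the Cd80 and Cd86 products also differed in level. Cd28 had 37.5 and 38.2 CPM with vehicle and 70.6 and 66.3 CPM with TAK-931, and Ctla4 had 2.96 and 2.64 CPM with vehicle and 23.2 and 5.31 CPM with TAK-931. Cd28 was tight within both groups and did not overlap, with a log2 fold change of 0.86 (SE 0.20, unadjusted p 0.0109 by edgeR), which was 0.81 without TAK-931-1 and 0.88 without TAK-931-2. In the vehicle pair, Cd28 and Tigit were each above the summed level of 8 T cell markers. Icos, the receptor of the Icosl product, had 6 and 2 counts with vehicle and 493 and 14 counts with TAK-931, Cd160 had 7 and 0 counts with vehicle and 160 and 20 counts with TAK-931, and Havcr2, which encodes TIM-3, had 4.63 and 1.32 CPM with vehicle and 122 and 7.23 CPM with TAK-931.

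**Figure D5:**
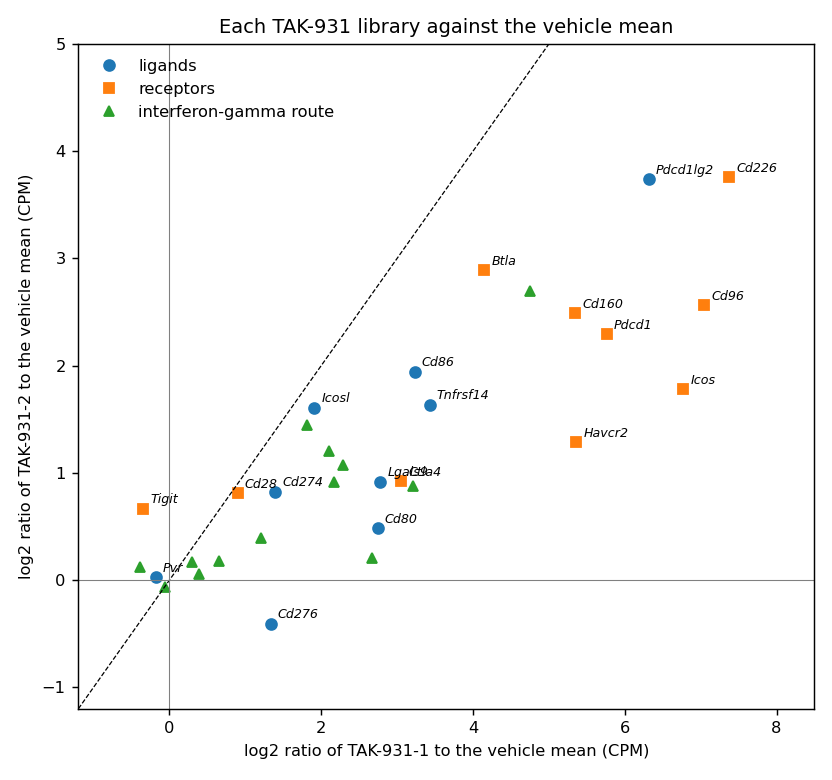
Log2 ratio of CPM to the vehicle mean in TAK-931-1 (horizontal axis) and TAK-931-2 (vertical axis) for 9 ligands, 10 receptors and 13 genes of the interferon-gamma route, with the line of equal ratios dashed. Most points lie above 0 in both libraries and below the dashed line; Tigit, Pvr and Cmtm4 lie above it, and Cd276 is below 0 in TAK-931-2.

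Of 17 further ligands of costimulatory or inhibitory receptors, 15 were tested. At an unadjusted p under 0.05, 5 were higher and 1 was lower with TAK-931 (all genes, 11.6% and 6.55%), 0 passed the adjusted threshold of edgeR, and the median log2 fold change was 0.78, or 0.45 without TAK-931-1. Tnfsf18, one of the 5, had 8 and 4 counts with vehicle and passed the filter through the TAK-931-treated libraries. Tnfsf4, which encodes the OX40 ligand, had the largest log2 fold change, 4.82, with 14 and 0 counts with vehicle and 403 and 44 counts with TAK-931. It too passed the filter through the TAK-931-treated libraries, and its value was 2.601 without TAK-931-1, while without Vehicle-1 no vehicle count remained and no fold is given. Hmgb1, which encodes a chromatin protein that is also a ligand of TIM-3, had the smallest, −0.86 (SE 0.23, unadjusted p 0.0163 by edgeR), with 464 and 428 CPM with vehicle and 234 and 257 CPM with TAK-931. It was lower in both TAK-931-treated libraries, while Lgals9, another gene for a TIM-3 ligand, was higher in both.

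The 13 genes listed for the route from interferon-gamma to PD-L1 were all tested. At an unadjusted p under 0.05, 6 were higher and 0 were lower (all genes, 11.6% and 6.55%), 0 passed the adjusted threshold of edgeR, and the median log2 fold change was 1.64, beside 0.02 over all genes, and 0.39 without TAK-931-1. Ifng, the cytokine gene, had 1.90 and 0.120 CPM with vehicle and 27.2 and 6.53 CPM with TAK-931 and the largest log2 fold change of the list, 4.05. It passed the filter through the TAK-931-treated libraries, and its value was 2.68 without TAK-931-1 and 7.04 without Vehicle-1, which left 2 vehicle counts. Over the other 12 genes of the route, 5 were higher at an unadjusted p under 0.05 by edgeR and the median was 1.25. Irf1, an interferon-induced transcription factor, had 68.1 and 53.4 CPM with vehicle and 261 and 140 CPM with TAK-931. For Irf1, edgeR gave a log2 fold change of 1.72 (SE 0.39) and an unadjusted p of 0.00982.

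Cmtm6, whose product holds PD-L1 at the cell surface, was level across the libraries, with 105 and 94.8 CPM with vehicle and 95.7 and 95.2 CPM with TAK-931. Its log2 fold change was −0.06 (95% interval −0.60 to 0.47), and it was 0.01 both without Vehicle-1 and under a filter of 10 counts per library. Cmtm4, a relative of Cmtm6, had the smallest log2 fold change of the route, −0.11, which became 0.12 without TAK-931-1.

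The patterns of the ligands over the 4 libraries were compared by the root mean square difference of log2 CPM, with each gene centred on its own mean. This is a description over 4 libraries that share the same contrast of cell content. Among the ligands, Cd86 and Tnfrsf14 were the most alike, at 0.231, followed by Lgals9 and Tnfrsf14 at 0.297 and Cd274 and Icosl at 0.298. Cd274 and Pdcd1lg2, neighbours on the chromosome, were among the least alike pairs, at 1.497, and Pdcd1lg2 and Pvr were the least alike, at 2.14. Both distances rest on the few vehicle counts of Pdcd1lg2, which passed the filter only through the group where it was high.

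Of 12149 other genes with an average log2 CPM over 1, Csf2rb, a receptor subunit of several cytokines, had the pattern nearest to Cd274, at 0.0191, followed by D17H6S53E at 0.0440 and B4galt5 at 0.0563. Csf2rb had 45.3 and 46.8 CPM with vehicle and 122 and 82.4 CPM with TAK-931. Nearest to Cd86 were Mx1, at 0.0368, and Ifih1, at 0.0422, and Atp1b1, at 0.0664. Nearest to Lgals9 were Dock1, Aim1 and Rhoq, at 0.0325, 0.0470 and 0.0480. Many other genes were nearly as close: 521 lay within 0.25 of Cd274, 106 of Cd86 and 255 of Lgals9.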

How the data were processed

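Bulk RNA-seq libraries of 2 vehicle-treated and 2 TAK-931-treated J558 allografts were analysed. The authors deposited 1 table of read counts per gene for each library, not normalized, and per the labels these came from STAR 2.6.1c and featureCounts on mm10; the headers point to uniquely mapped reads. The strand setting is not given in the sources used here. No exon of the 10 ligands overlapped an exon of another gene in the tables. Between 18.8% and 24.8% of low counts (1 to 25) were odd numbers, so both mates of a pair appear to be counted, and counting intervals are too narrow.

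Genes were kept with filterByExpr (minimum count of 10), scaled by TMM and compared with the robust quasi-likelihood test of edgeR 4.0.16 (R 4.3.3) on a treatment-only design, with two-sided p-values, Benjamini-Hochberg adjustment over 13669 genes and a threshold of 0.05. The test was checked on simulated counts. Exact permutation tests used SciPy 1.17.1. Patterns and ratios between lists used log2(CPM + 0.5); ratios to Ptprc used CPM. Other tools were DESeq2 1.42.0 and limma-voom (limma 3.58.1). Alternatives covered scaling (median of ratios, or library size alone), 2 other filters, no robust estimation, halved counts, a replicate block and each library left out. The ligands and all lists were chosen with earlier results of these data known. The genes named were the ligands, their receptors, Ptprc, Ifng, Irf1, Jak2, Cmtm6, the largest and smallest log2 fold change of each list, the 3 nearest patterns to Cd274, Cd86 and Lgals9, and, chosen after their values were seen, Plgrkt and the cell markers Cd79b, Ms4a1, Pax5, Trap1a, Itgax, Flt3, Xcr1, Jchain, Sdc1, Xbp1, Mzb1 and Tnfsf18. Marker lists are given as sums with a few of their genes, not by their largest and smallest changes, and one other gene under this rule and one further motif searched are not reported here.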

Additional observations from a re-analysis of the deposited data

How the results depend on the processing

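The direction of 7 ligands (Cd274, Pdcd1lg2, Lgals9, Cd80, Cd86, Tnfrsf14 and Icosl) was the same under every alternative that gave a value; Pdcd1lg2 could not be computed with at least 10 counts in every library. Without TAK-931-1, the log2 fold change turned to −0.41 for Cd276, 0.026 for Pvr and 0.12 for Cmtm4; without TAK-931-2 it turned to −0.37 for Tigit. Over the fits with 1 library left out, the ranges were −0.41 to 1.31 for Cd276, −0.20 to 0.026 for Pvr, −0.37 to 0.66 for Tigit, −0.15 to 0.013 for Cmtm6 and −0.19 to 0.051 for Ermp1. Under a filter of 10 counts per library, Cmtm6 turned to 0.0097 and Ermp1 to 0.0054. The number of ligands at an adjusted p under 0.05, 0 in edgeR, was 6 in DESeq2 and between 0 and 8 when 1 library was left out, with 6 without TAK-931-1 and 8 without TAK-931-2; at an unadjusted p it was 6, against 3 in limma-voom and between 4 and 8 with 1 library left out. For the 42 tested receptors, further ligands, route genes and neighbours, the adjusted number was 0 in edgeR, 17 in DESeq2 and between 0 and 35 with 1 library left out, with 13 without TAK-931-1, and the unadjusted number of 21 was 11 in limma-voom and between 8 (without Vehicle-2) and 35 (without TAK-931-2) with 1 library left out. With 1 library of a group left, that library was assumed to vary like the other group. The cause of these differences was not tested. The replicate block called 0 of the ligands and 1 of the 42 genes, Cd226 (log2 fold change 6.65). The deviations of same-numbered libraries correlated at 0.02. With 2 libraries per group, this value cannot tell whether same-numbered libraries share more than a number. In the order of levels per kilobase, library size only and TPM kept all 10 ligands in place in both groups; between 8 and 10 kept their place in the vehicle order with 1 library left out, and between 3 (without TAK-931-1) and 10 in the TAK-931 order. Relative to Ptprc, 7 or 8 ligands were lower with 1 library left out. Depth limits Vtcn1 and the vehicle values of Pdcd1lg2, Cd226, Cd96, Cd160 and Icos.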
